A study of Mus musculus with 4 samples.

Results

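The 40 genes described here are the core genes of the cell division cycle: the cyclins that start it, the enzymes that copy DNA in S phase and the proteins that carry a cell through G2 and mitosis. They were chosen by name, as the array probes named for one of these genes or for an older name of one (Cdc2a for Cdk1). The array held 68 such probes, 2 of them under the older name, and all 40 genes were among the 21392 genes tested. By role they comprise 5 G1 cyclins, 12 S phase genes and 23 genes of G2 and mitosis. The probe that stood for each gene was well above background on all 4 arrays, so none of the 40 was measured only as a bound, and no member probe was saturated.

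RNA came from CD45-negative cells of wild-type C57BL/6NCrl mice, taken from mesenteric lymph node (mLN), into which lymph from the gut flows, or from peripheral lymph node (pLN), and the labels name no treatment of the animals. In each of 2 experiments the nodes were digested with collagenase at 1 mg/ml for 30 min, CD45-negative cells were separated magnetically, and 80 ng of total RNA was amplified and hybridised to a 1-colour Agilent array, which gave 2 mLN and 2 pLN arrays. The series calls these cells stromal in its title and stem cells in its design text, and states a mean purity of 97.4% ± 2.0 for mLN and 97.5% ± 2.2 for pLN (SD). The labels do not say how many animals made up a sample, whether the experiments used separate animals or which peripheral nodes were taken, so a p-value here reflects the spread among these arrays, which may be technical. Levels are log2 signals relative to the 75th percentile of the array, so that 0 is the signal of a probe at that percentile, and differences are log2 differences, mLN minus pLN.

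The arrays lay on 1 slide and carried the same dye. The mLN arrays had 81.1% and 74.0% of probes well above background in experiments 1 and 2, and the pLN arrays 79.7% and 77.8%, so the mLN array of experiment 2 had the smallest share. The 9 fibroblastic stroma markers, such as Pdpn, Pdgfrb and Ccl19, were well above background on all 4 arrays, and so were the 7 endothelial markers. All 12 leukocyte markers were also well above background on every array. Ptprc, which encodes CD45 itself, had levels of −1.54 and −1.42 in mLN, against −1.32 and −1.77 in pLN.

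A cell enters the division cycle when D-type cyclins, and then E-type cyclins, activate kinases that release the E2F transcription factors from the retinoblastoma protein. E2F turns on the genes of DNA replication at the border of G1 and S phase, and a later wave of transcription, driven by the MuvB complex with B-Myb and FoxM1, turns on the genes of G2 and mitosis. Because the mitotic genes are silent in resting cells, their RNA is widely used as a measure of the share of dividing cells in a tissue. In lymph nodes, lymphocytes divide in germinal centres and during T cell responses, and the stromal cells of the node divide when it enlarges. In a bulk sample, fewer dividing cells and less of these RNAs per dividing cell cannot be told apart.

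The S phase and the mitotic genes differ in the letters of their promoters, which are shown here as background. A link between these letters and the values on the arrays was not tested. Promoter windows of 300 bases, 250 before and 50 after the start, were taken from RefSeq (GRCm38.p6) and matched 32 of the 40 genes. Motifs of 3 kinds were searched on both strands: the CHR element (TTTGAA), which MuvB complexes bind, the CCAAT box (CCAAT), which NF-Y binds, and an E2F element (TTTGGCGC, TTTCGCGC, TTTCCCGC or TTTGCCGC). Matches of different motifs, or of a motif on opposite strands, were allowed to overlap. CHR letters stood in 14 of 19 windows of G2 and mitosis genes (73.7%), in 1 of 11 windows of S phase genes (9.09%) and in 20.2% of the 27025 genes with a window. The E2F letters stood in 1 of 19 windows of G2 and mitosis genes (5.26%), in 5 of 11 of S phase genes (45.5%) and in 2.6% of all genes. CCAAT letters were common in both groups, with 17 of 19 and 8 of 11 windows, against 41.1% of all genes. The windows of 4 genes are printed without their last 50 bases, with the motif letters in capitals. Cdc20 encodes the activator of the anaphase-promoting complex, and its minus-strand window at chr4:118437344-118437593 had 1 CHR and 2 CCAAT matches. Ube2c, the ubiquitin-conjugating enzyme of that complex, had 1 CHR and 6 CCAAT matches on the plus strand at chr2:164769679-164769928. Cdk1, the kinase that drives entry into mitosis, was the mitotic gene that held the E2F letters, with 2 CHR, 3 CCAAT and 1 E2F match on the minus strand at chr10:69352913-69353162. Mcm6, a subunit of the MCM helicase that opens DNA for replication, had no CHR match, 2 CCAAT and 3 E2F matches on the minus strand at chr1:128359706-128359955. A match describes the letters of the window and is not evidence of binding.
Cdc20: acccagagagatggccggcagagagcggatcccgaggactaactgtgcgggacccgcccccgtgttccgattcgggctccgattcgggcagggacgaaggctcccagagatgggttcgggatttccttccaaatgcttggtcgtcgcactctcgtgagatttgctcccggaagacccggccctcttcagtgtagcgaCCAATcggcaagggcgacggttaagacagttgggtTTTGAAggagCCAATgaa
Ube2c: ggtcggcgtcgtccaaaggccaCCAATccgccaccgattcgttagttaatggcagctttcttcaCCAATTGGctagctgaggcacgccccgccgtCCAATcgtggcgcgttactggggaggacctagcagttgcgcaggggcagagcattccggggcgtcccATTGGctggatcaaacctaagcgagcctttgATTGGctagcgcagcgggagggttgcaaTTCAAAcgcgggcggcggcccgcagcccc
Cdk1: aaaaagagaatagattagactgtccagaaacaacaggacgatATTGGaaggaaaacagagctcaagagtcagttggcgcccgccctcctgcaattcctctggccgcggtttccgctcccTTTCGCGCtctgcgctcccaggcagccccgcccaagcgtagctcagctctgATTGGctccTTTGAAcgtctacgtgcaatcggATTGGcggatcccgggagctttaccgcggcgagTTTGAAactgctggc
Mcm6: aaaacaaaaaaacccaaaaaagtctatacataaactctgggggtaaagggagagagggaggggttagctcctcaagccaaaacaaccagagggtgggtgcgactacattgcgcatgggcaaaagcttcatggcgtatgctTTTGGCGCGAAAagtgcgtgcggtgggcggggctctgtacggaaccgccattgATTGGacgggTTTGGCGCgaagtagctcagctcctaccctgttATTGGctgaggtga

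None of the 40 genes passed the test between mLN and pLN, and their values followed different patterns by role. The S phase genes lay slightly lower in mLN in both experiments, the G2 and mitosis genes lay lower in mLN in experiment 2 but not in experiment 1, and the D-type cyclins went in opposite directions. At a limma adjusted p of 0.05, 0 of 40 genes were called, against 1.05% of all genes tested (0 higher in mLN, against 0.776%, and 0 lower, against 0.276%), and the smallest adjusted p was 0.199, for Ccnd3. At an unadjusted p below 0.05 there were 2 of 40, Ccnd2 and Ccnd3, against 14.7% of all genes. All 40 fitted differences were under 2-fold, and in simulated data the method called 0% of 2-fold changes. The absence of calls therefore does not show that the nodes were alike.

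Of the 40 fitted differences 35 were below 0, against 55.7% of all genes, with a median of −0.25 against −0.03. Both mLN arrays lay below both pLN arrays for 9 of the 40 genes, where 25% of all genes did so, and above them for 2, where 20.6% did. Small differences below 0 were thus frequent among the 40 genes, and separation of the nodes was not. In experiment 1 mLN was below pLN for 22 of 40 genes, against 52.3% of all genes, and in experiment 2 for 36 of 40, against 54.5%. The ratio was below 0 in both experiments for 21 of 40, against 34.9%. None of the 40 was at least 1.5-fold lower in both experiments, against 4.34% of all genes, or 1.5-fold higher in both, against 5.39%, and so none was 2-fold lower in both, against 1.71%. Each ratio within an experiment rests on 1 array per node and was not tested.

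**Figure D1:**
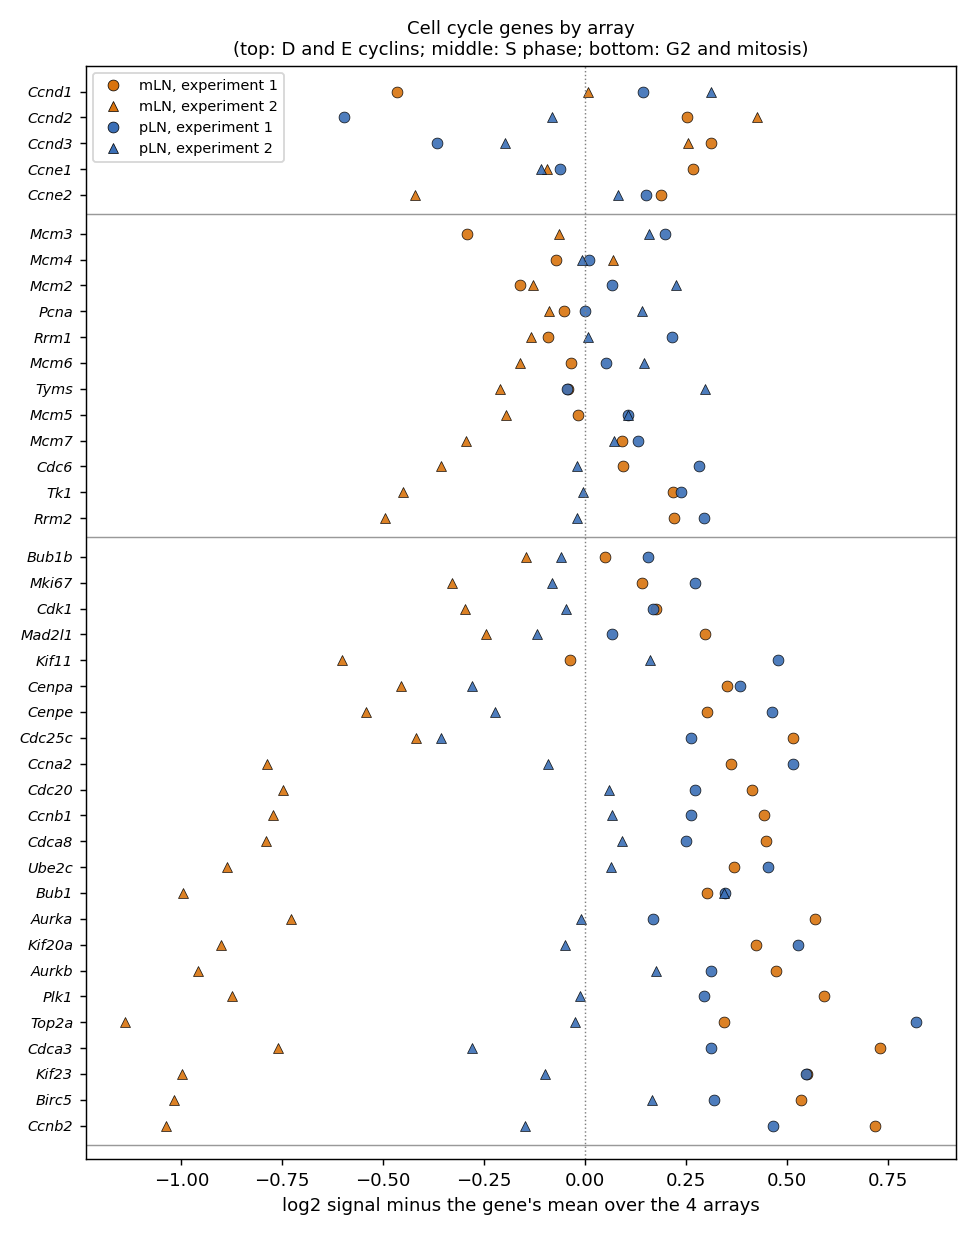
Log2 signal of each of the 40 genes on each array, minus the gene's mean over the 4 arrays (horizontal axis), with genes ordered within role by the difference between the mLN arrays. Orange marks mLN and blue pLN, circles experiment 1 and triangles experiment 2; for all 23 G2 and mitosis genes the orange triangle is the lowest of the 4 points.

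The G1 cyclins bind Cdk4 and Cdk6 (D-type) or Cdk2 (E-type), and the D-type and E-type cyclins differed in how far the nodes lay apart. Ccnd2, which encodes cyclin D2, had levels of 3.57 and 3.74 in mLN, against 2.72 and 3.23 in pLN. Ccnd3, which encodes the cyclin D3 used widely by lymphocytes, had 2.29 and 2.23 in mLN, against 1.61 and 1.78 in pLN. For both genes the mLN arrays lay above the pLN arrays without overlap. The probes lay at chr6:127114297-127114356 on the minus strand for Ccnd2 and at chr17:47062509-47062568 on the plus strand for Ccnd3 (mm8, as the files give them). The difference was 0.68 ± 0.23 for Ccnd2 (SE, n = 2 per node, limma adjusted p = 0.294), which is 1.6-fold. It was 0.57 ± 0.15 for Ccnd3 (SE, n = 2 per node, limma adjusted p = 0.199), which is 1.48-fold. Neither passed, although they had the 2 smallest p-values of the 40 genes.

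Ccnd1, the cyclin D gene most used by mesenchymal and epithelial cells, went the other way. Its level was 4.10 and 4.57 in mLN, against 4.71 and 4.87 in pLN, so that mLN lay below pLN without overlap, by 0.46 on the log2 scale (−0.46 ± 0.22, limma adjusted p = 0.450). Within the experiments the ratios were −0.61 and −0.31 for Ccnd1, 0.85 and 0.51 for Ccnd2, and 0.68 and 0.45 for Ccnd3, each of them smaller in experiment 2. The E-type cyclins had no such separation. Ccne1 had −1.25 and −1.61 in mLN, against −1.58 and −1.63 in pLN, and its difference of 0.17 ± 0.18 was within the spread between arrays (limma adjusted p = 0.759). Ccne2 had −2.37 and −2.98 in mLN, against −2.40 and −2.47 in pLN, with a difference of −0.23 ± 0.25 (limma adjusted p = 0.759). For both E cyclins the mLN arrays differed from each other by more than the pLN arrays did, with the lower value in experiment 2.

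All 12 S phase genes had fitted differences below 0, where 55.7% of all genes did. The differences ran from −0.36 for Mcm3 to −0.001 for Mcm4, with a median of −0.23. None of them passed the test. None was as much as 1.5-fold lower in mLN in experiment 1, against 8.94% of all genes, or in experiment 2, against 11.6%. The list holds the 6 subunits of the MCM helicase (Mcm2 to Mcm7), its loader Cdc6, the sliding clamp Pcna, and the genes that make DNA precursors: the ribonucleotide reductase subunits Rrm1 and Rrm2, thymidylate synthase (Tyms) and thymidine kinase (Tk1). The ratio was below 0 for 11 of 12 in each experiment (52.3% and 54.5% of all genes) and for 10 of 12 in both (34.9% of all genes). The exceptions were Tyms in experiment 1, at 0.002, and Mcm4 in experiment 2, at 0.08. For 6 of the 12, Mcm2, Mcm3, Mcm5, Mcm6, Pcna and Rrm1, both mLN arrays lay below both pLN arrays, where 25% of all genes did so.

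Mcm3 had the largest of these differences, with levels of 0.69 and 0.92 in mLN, against 1.18 and 1.14 in pLN (−0.36 ± 0.15, SE, n = 2 per node, limma adjusted p = 0.412). Mcm2 had −1.06 and −1.03 in mLN, against −0.83 and −0.68 in pLN (−0.29 ± 0.14, limma adjusted p = 0.469). For both, the arrays of a node lay closer together than the node means did. Rrm1, the large subunit of ribonucleotide reductase, had 0.72 and 0.67 in mLN, against 1.02 and 0.82 in pLN. Mcm5 had −0.36 and −0.54 in mLN, against −0.23 on each pLN array. Mcm6, whose promoter is printed above, had 2.90 and 2.77 in mLN, against 2.98 and 3.08 in pLN. These 3 genes had differences of −0.22, −0.21 and −0.20, with limma adjusted p-values of 0.606, 0.608 and 0.634. The median S phase ratio was −0.08 in experiment 1 and −0.32 in experiment 2, against −0.02 and −0.03 for all genes.

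The 23 genes of G2 and mitosis had a median difference of −0.33, and 21 of them lay below 0, against 55.7% of all genes, but their nodes did not separate. Both mLN arrays lay below both pLN arrays for only 2 of 23, Kif11 and Bub1, against 25% of all genes. In experiment 1 the median ratio was 0.01, with 10 of 23 genes below 0, against 52.3%. In experiment 2 the median was −0.81, with 23 of 23 below 0, against 54.5%, from −0.06 for Cdc25c to −1.34 for Bub1. At least 1.5-fold lower in mLN were 15 of the 23 in experiment 2, against 11.6% of all genes, and 0 of 23 in experiment 1, against 8.94%.

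**Figure D2:**
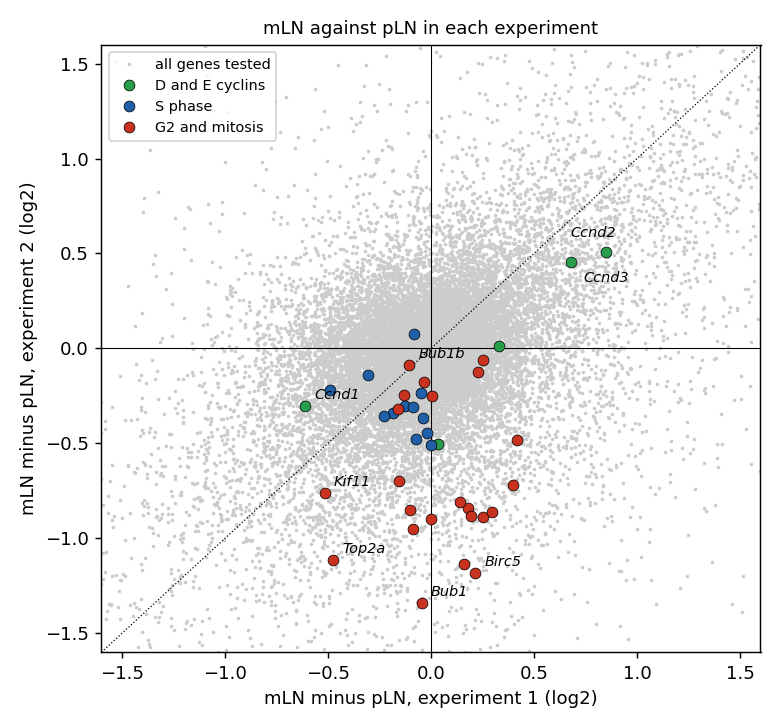
The mLN minus pLN log2 ratio of each gene in experiment 1 (horizontal axis) and experiment 2 (vertical axis), with 1 array per node in each; grey points are all genes tested, the dotted line marks equal ratios, and genes with larger ratios lie outside the axes. The red G2 and mitosis genes all lie below 0 on the vertical axis and on both sides of 0 on the horizontal axis, while Ccnd2 and Ccnd3 are high and Ccnd1 is low in both experiments.

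Kif11, the motor that pushes the spindle poles apart, was the mitotic gene with the smallest p-value. It had −2.89 and −3.46 in mLN, against −2.38 and −2.69 in pLN (−0.64 ± 0.26, SE, n = 2 per node, limma adjusted p = 0.376), and its ratio was below 0 in both experiments, at −0.52 and −0.76. Bub1, a kinase of the spindle checkpoint, had −2.82 and −4.11 in mLN, against −2.77 on each pLN array (−0.69 ± 0.46, limma adjusted p = 0.599). Its separation therefore rested on the mLN array of experiment 2, since in experiment 1 the nodes differed by −0.05.

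Cdc20, Ube2c, Birc5, Top2a, Cdk1 and Mki67 were picked out after their values were seen, the 4 first for gaps of more than 2-fold between the mLN arrays and the last 2 as familiar markers of cycling cells. Cdc20 had 1.06 and −0.10 in mLN, against 0.92 and 0.71 in pLN. Ube2c had 0.99 and −0.26 in mLN, against 1.08 and 0.69 in pLN. In each of these genes the mLN array of experiment 1 lay within or close to the pLN values, and the mLN array of experiment 2 lay far below them. Birc5, which encodes survivin, a subunit of the chromosomal passenger complex, had 1.72 and 0.16 in mLN, against 1.5 and 1.35 in pLN. Top2a, the topoisomerase that untangles sister chromatids, had −2.48 and −3.97 in mLN, against −2.01 and −2.85 in pLN. Top2a was thus also lower on the pLN array of experiment 2 than on that of experiment 1. Smaller gaps were seen for Cdk1, with −0.03 and −0.51 in mLN, against −0.04 and −0.25 in pLN. Mki67, which encodes the Ki-67 antigen, had −1.26 and −1.73 in mLN, against −1.12 and −1.48 in pLN. The differences between nodes ranged from −0.79 ± 0.59 for Top2a to −0.12 ± 0.22 for Cdk1 among these 6 genes, and with limma their adjusted p-values lay between 0.645 and 0.876.

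Set against the S phase genes, the G2 and mitosis genes had the larger fitted differences and the larger errors: their median standard error was 0.46, against 0.15 for the S phase genes and 0.18 for all genes. The spread came from the arrays within a node. In mLN all 23 genes were lower in experiment 2 than in experiment 1, where 51.1% of all genes were, with a median of −1.24, which is 2.36-fold, where the S phase genes had a median of −0.15 and all genes −0.01. More than 2-fold lower in experiment 2 were 15 of the 23 in mLN, against 4.42% of all genes and 0 of 12 S phase genes. In pLN all 23 were also lower in experiment 2, where 48.2% of all genes were, but with a median of −0.32 and 0 of 23 by more than 2-fold, against 1.48% of all genes, and the S phase median was −0.03. Each node has 1 array per experiment, so these values carry no test, and the difference between the gene groups was not tested.

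Among the G2 and mitosis genes the size of this gap followed no single role. The mitotic cyclins Ccnb2 (−1.76), Ccnb1 (−1.21) and Ccna2 (−1.15) were among the 15, as were the kinases Aurkb (−1.43), Plk1 (−1.46), Aurka (−1.30) and Bub1 (−1.30). So were the passenger complex genes Birc5 (−1.55) and Cdca8 (−1.24), the cytokinesis motors Kif23 (−1.55) and Kif20a (−1.33), and Cdca3 (−1.49), a trigger of Wee1 breakdown. Top2a (−1.48), Ube2c (−1.25) and Cdc20 (−1.16) completed the 15. Below that limit, for the probe used, lay Cdc25c (−0.93), the phosphatase that activates Cdk1, and the kinetochore genes Cenpe (−0.84) and Cenpa (−0.81). Kif11 (−0.56), Mad2l1 (−0.54), Cdk1 (−0.47), Mki67 (−0.47) and Bub1b (−0.20) had the smallest gaps. Spindle checkpoint genes thus stood at opposite ends, with Bub1 among the 15 and Bub1b last. CHR letters stood at both ends too. Among the 15, the windows of Ccnb2, Plk1, Aurka, Cdca8, Kif23, Cdca3, Top2a, Ube2c and Cdc20 held them, and those of Bub1 and Ccnb1 did not. Among the genes with the smallest gaps, Kif11, Cdk1, Mki67 and Bub1b held them. Ccna2, Aurkb, Birc5, Kif20a and Mad2l1 had no window or a window without these letters. Of the S phase genes, Rrm2 (−0.72), Tk1 (−0.67) and Cdc6 (−0.45) had the largest gaps in mLN, while Mcm3 (0.23), Mcm4 (0.14) and Mcm2 (0.03) were higher in experiment 2. Among the G1 cyclins the gap was −0.61 for Ccne2 and −0.36 for Ccne1, and 0.47 for Ccnd1.

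**Figure D3:**
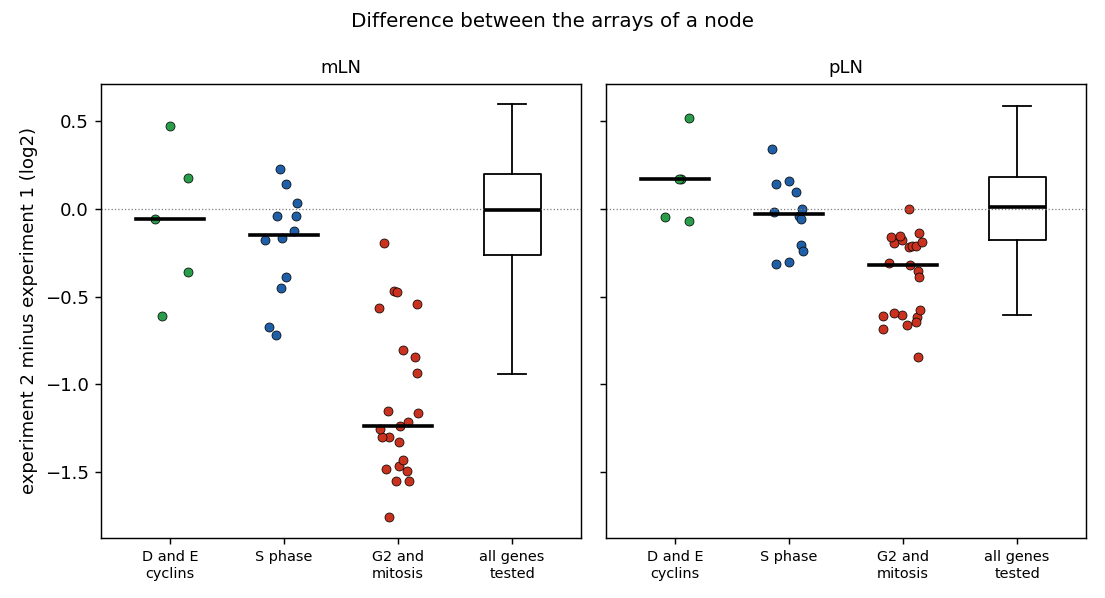
Experiment 2 minus experiment 1 (log2) in mLN (left) and pLN (right) for each gene by role; thick lines are medians, and the box shows the quartiles and 5th to 95th percentiles of all genes tested. The G2 and mitosis genes have a median of −1.24 in mLN and −0.32 in pLN, and those of the other groups lie nearer to 0.

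The direction of the gap did not depend on which probe stood for a gene. All 34 probes of the 23 genes that entered were lower in experiment 2 in both nodes, 24 of them by more than 2-fold in mLN. The size of the gap did depend on the probe. In mLN the probes used gave −0.93 for Cdc25c and −0.84 for Cenpe. Another entering probe of each gene gave −1.38 and −1.24, past the 2-fold limit. In pLN that other Cdc25c probe gave −1.31, against −0.62 for the probe used. The 12220 genes within the level range of the 23 (−4.75 to 1.18) had a median of −0.01 between the mLN arrays. Of these, 3.07% were more than 2-fold lower in experiment 2. That range is broad and the genes were not matched on level, so the part of signal level in the gap was not tested. Between nodes, the probes of a gene differed in sign for 3 of the 16 genes with several entering probes, Cdc25c, Cdca3 and Mad2l1, each with a difference near 0 for the probe used. Summed on the linear scale, with the 75th percentile of the array as 1, the signal of the 23 genes was 19.0 and 8.55 in mLN, against 17.9 and 14.1 in pLN. That of the 12 S phase genes was 51.1 and 48.1 in mLN, against 53.9 and 58.0 in pLN.

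The other cell cycle genes were taken as 4 lists of 99 genes, of which 97 were tested. Most of the 37 tested of the other mitotic genes were also lower on the mLN array of experiment 2, with a smaller median gap than the 23. In mLN 34 of 37 were lower in experiment 2, against 51.1% of all genes, with a median of −0.75, and the median in pLN was −0.36. In mLN 11 of the 37 were more than 2-fold lower in experiment 2, against 4.42% of all genes, and in pLN 2, against 1.48%. In experiment 1 mLN was below pLN for 23 of these 37 genes, with a median of −0.09, against 52.3% of all genes. The CHR letters stood in 21 of 32 of their windows. The 33 tested of the other replication genes had a median of −0.14 in mLN and −0.03 in pLN, with 1 more than 2-fold lower in mLN, and the E2F letters stood in 11 of 27 of their windows. Between nodes, the median difference was −0.38 for the other mitotic genes and −0.14 for the other replication genes, with 0 called in each.

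Both mLN arrays lay below both pLN arrays for 7 of 37 other mitotic genes and 12 of 33 other replication genes, against 25% of all genes. They lay above for 2 of 37 and 5 of 33, against 20.6%. None of these genes passed, and those named next had the smallest p-values of their list. Espl1, which encodes separase, had −4.55 and −4.99 in mLN, against −3.98 and −3.92 in pLN (−0.82 ± 0.20, limma adjusted p = 0.185). Mcm10, a replication initiation factor, had −4.23 and −4.50 in mLN, against −3.78 and −3.58 in pLN (−0.69 ± 0.17, limma adjusted p = 0.195). The spindle factor Tpx2 (−0.66), the phosphatase gene Cdc25b (−0.60), the polymerase alpha subunit Pola2 (−0.51) and the clamp loader subunit Rfc3 (−0.46) were likewise below pLN on both mLN arrays. Anln, which encodes the cytokinesis protein anillin, had −2.05 and −2.39 in mLN, against −2.67 and −3.28 in pLN (0.76 ± 0.27, limma adjusted p = 0.323). Pole, the catalytic subunit of polymerase epsilon, was higher in mLN by 0.47 ± 0.14 (limma adjusted p = 0.240).

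Among the 15 inhibitors and brakes of the cycle 1 passed the test, Cdkn2a, and none of the 12 activators did, against 1.05% of all genes. Cdkn2a encodes the Cdk4 and Cdk6 inhibitor p16 and the p53 activator Arf from shared exons, and the signal was not assigned to either. Its probe lay on the minus strand at chr4:88745872-88745931 (mm8, as the files give it). Its levels were −4.97 and −4.81 in mLN, with both signals well above background, against −7.38 and −7.27 in pLN, with neither well above background. The measured means differed by 2.43 ± 0.15 (SE, n = 2 per node, limma adjusted p = 0.0155), and as a bound, which sets each pLN array to its dimmest signal that still counted as well above background, Cdkn2a was at least 3.87-fold higher in mLN. The call was lost when pLN replicate 1 was left out (limma adjusted p = 0.123) or pLN replicate 2 (0.138), with no filter on dim probes (0.0537), and with either normexp background correction (0.689 and 0.0682), over a range of 0.00941 to 0.689 across all alternatives.

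The neighbouring inhibitor gene Cdkn2b, which encodes p15, had 0.66 and 0.60 in mLN, against −0.02 and −0.06 in pLN (0.67 ± 0.13, limma adjusted p = 0.137). Cdkn1c, which encodes p57, had 2.16 and 1.90 in mLN, against 1.16 and 1.49 in pLN (0.70 ± 0.19, limma adjusted p = 0.218). Both lay higher in mLN without overlap and did not pass, as did Cdkn2c (0.39 ± 0.16, limma adjusted p = 0.381), which encodes p18. Of the 15 inhibitors 5 lay higher in mLN without overlap, against 20.6% of all genes. Another 4, Rb1, Rbl1, Btg1 and Gadd45a, lay lower in mLN without overlap, against 25%. The most widely expressed inhibitors showed no such separation, with differences of −0.22 ± 0.27 for Cdkn1a, which encodes p21, and 0.01 ± 0.21 for Cdkn1b, which encodes p27. Over the 15 inhibitors the median difference was 0.04, and over the 12 activators −0.06. Of the activators, Cks1b (0.32 ± 0.14) was higher and Skp2 (−0.40 ± 0.18), E2f2 (−0.55 ± 0.26) and Mycn (−0.28 ± 0.23) were lower in mLN, with limma adjusted p-values from 0.419 to 0.679.

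Markers of other cells in the samples are given beside these results as signal summed over each list, in experiments 1 and 2. The 12 leukocyte markers summed to 7.25 and 9.0 in mLN, against 9.40 and 7.85 in pLN. In mLN 10 of 12 were higher in experiment 2, opposite to the mitotic genes. In pLN 9 of 12 were lower in experiment 2, the direction of the mitotic genes there. Of the germinal centre B cell markers Bcl6, S1pr2, Mybl1, Gcsam and Rgs13, Mybl1 was not tested, and the other 4 summed to 4.92 and 3.40 in mLN, against 3.81 and 2.84 in pLN. Their sum was thus lower in experiment 2 in both nodes, as the mitotic genes were, with 3 of 4 lower in mLN. Bcl6 gave most of the sum, with levels of 2.05 and 1.28 in mLN, against 1.69 and 1.01 in pLN. S1pr2 was higher in experiment 2 in both nodes, with −0.50 and −0.09 in mLN, against −0.92 and −0.37 in pLN. The 6 plasma cell markers summed to 33.6 and 37.5 in mLN, against 29.7 and 32.2 in pLN. Erythroid markers, 8 of 10 tested, summed to 389 and 396 in mLN, against 441 and 445 in pLN. Hba-a1 gave most of that sum, with levels of 8.55 and 8.60 in mLN. Of the 8 markers 5 were lower in experiment 2 in mLN, with a median gap of −0.45.

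Endothelial markers summed to 75.5 and 62.2 in mLN, against 77.4 and 70.8 in pLN, with 6 of 7 lower in experiment 2 in mLN, and the 9 fibroblastic markers to 1037 and 1179 in mLN, against 929 and 1041 in pLN. The 7 markers of pancreatic acinar cells, an organ that borders the mesentery, summed to 808 and 294 in mLN, against 18.8 and 1.16 in pLN. The 7 mesothelial markers summed to 40.4 and 30.0 in mLN, against 3.45 and 4.89 in pLN, and all 7 of each of these lists were lower in experiment 2 in mLN. The 7 glandular epithelial markers summed to 7.29 and 4.91 in mLN, against 11.7 and 19.0 in pLN, with 5 of 7 lower in experiment 2 in mLN. Most of the mLN sum came from Krt8, with levels of 1.84 and 1.40, and Krt18, with 1.77 and 0.99. Esrp1, counted among the 5, was not well above background in mLN. Epcam and Elf5 were higher in experiment 2 in mLN, Elf5 also without being well above background there. Of all genes, 51.1% were lower in experiment 2 in mLN. The endothelial, acinar and mesothelial signals and the share of probes above background thus moved with the mitotic genes between the mLN arrays. So did 5 of the 8 erythroid markers, though not their sum. The germinal centre B cell and glandular sums also fell between those arrays, but rested mostly on Bcl6 and on Krt8 and Krt18. The part of these signals in the result was not tested.

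The lower mitotic signal in mLN depended on the mLN array of experiment 2. Without it the median difference of the 23 genes was 0.25, with 3 of 23 below 0, and without the mLN array of experiment 1 it was −0.94, with 23 of 23 below 0. The S phase median stayed below 0 when any array was left out, between −0.29 and −0.12. With normexp on the local background of each spot the median of the mitotic genes was 0.43, where that of all genes was 0.38, and 6 of 23 lay below 0.

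**Figure D4:**
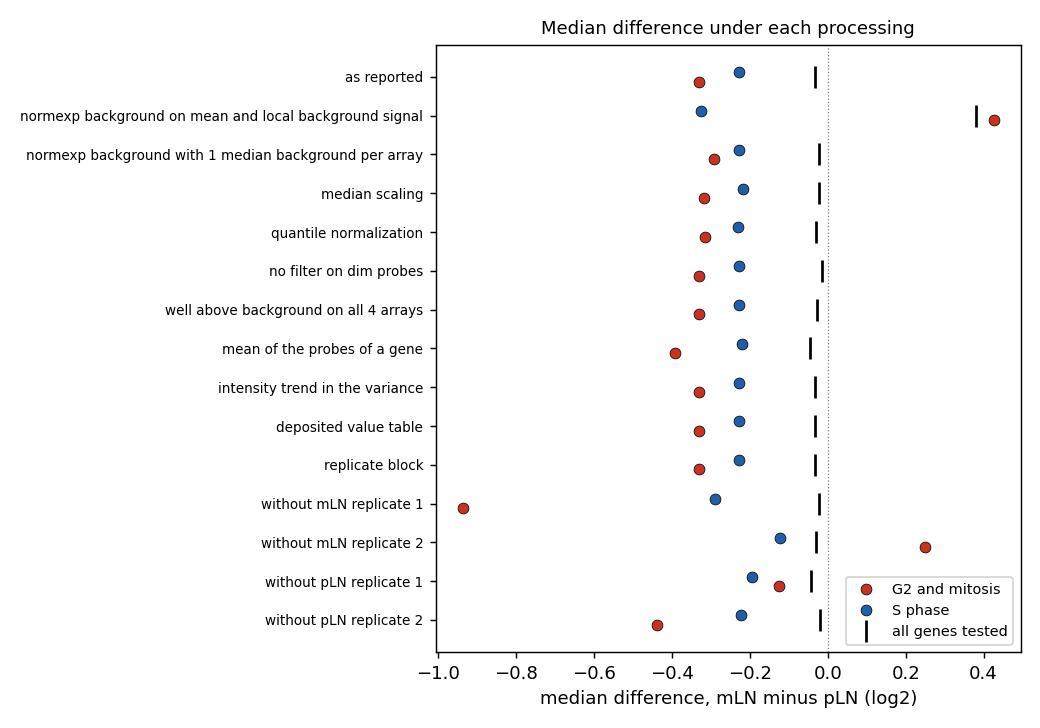
Median mLN minus pLN difference (log2) of the G2 and mitosis genes (red), the S phase genes (blue) and all genes tested (black ticks) under each processing and with each array left out. The blue points stay below 0 throughout, and the red point lies above 0 without mLN replicate 2 (0.25) and with normexp on the local background (0.43).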

How the data were processed

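Agilent Feature Extraction 9.5.3.1, named in the submitters' processing notes, gave the deposited intensity values, background-subtracted and detrended per the file headers. The deposited files hold other columns, flags of 0 or 1 per spot for signals well above background, saturation and outliers. All arrays share 1 slide and scan, so neither could be estimated as a batch. A value table of linear intensity was also deposited and served as an alternative.

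Control and outlier spots were left out, spots of a probe were averaged, and log2 was taken minus the 75th percentile of the array. A probe entered if both arrays of either node had it well above background (31883 of 41174), and each gene took its entering probe with the highest mean (21392 genes, 40 of them the genes described). Of the 68 probes of these genes, 59 entered and 9 did not. Other probes were named through RefSeq accessions, symbols and synonyms, and 8075 stayed as filed. Probe positions are those of the files (mm8) and were not converted.

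Differences were tested with limma 3.58.1 in R 4.3.3 (lmFit and eBayes, no block, 4.35 total degrees of freedom), with Benjamini-Hochberg adjustment over all genes and a threshold of 0.05. The method was tested on simulated data with 200 changed genes at each size. It called 0% of 2-fold, 47% of 4-fold and 79.5% of 16-fold changes, with 0, 0 and 7 false calls. Errors after ± are standard errors (standard deviations for purity). An exact permutation of 2 against 2 arrays cannot go below 0.333. The number of arrays limits the precision.

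The sample titles carry an experiment number, so equal numbers mark a shared experiment. The gap between experiments 2 and 1 in mLN correlated across genes with that in pLN (r = 0.246). The block changed no call among these genes.

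The genes, lists, tests and named-gene rule were chosen with earlier results of these data known. Given on every array were the 10 genes with the smallest p-values, all G1 cyclins, and up to 4 genes per other list, those that passed or else those with the smallest p-values. Alternatives covered background correction, scaling, the dim-probe filter, probe choice, the variance trend, the deposited table, the block and leaving out each array. Normexp with 1 median background per array was added after seeing the data. A gene of the germinal centre B cell list is not reported here, and the list was summed without it.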

Additional observations from a re-analysis of the deposited data

How the results depend on the processing

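None of the 40 genes was called under any of the 14 alternatives, including the fit with experiment as a replicate block, which called 0 of the 40. Over all genes tested, 225 were called as reported, against 333 with the block, which changed no other call given here. The count was 0 with normexp on the local background, without pLN replicate 1 and without pLN replicate 2, 44 with no filter on dim probes, 167 and 190 without mLN replicate 1 and 2, 210 where all 4 arrays had to be above background, 214 with the mean of a gene's probes, 239 with quantile normalization, 276 with the deposited table, 354 with median scaling, 358 with normexp on 1 median background per array, an alternative chosen after seeing the data, and 441 with an intensity trend. The G2 and mitosis genes below 0 numbered 21 as reported, 6 with normexp on the local background, 3 without mLN replicate 2, and 3 to 23 with an array left out. Their median difference was −0.33 as reported, 0.43 with that normexp and −0.94 to 0.25 with an array left out, at 0.25 without mLN replicate 2 and −0.94 without mLN replicate 1. Their median gap between the mLN arrays was −1.24 as reported and 0.26 with that normexp, where all genes had 0.68, which leaves −0.42 relative to all genes, and −1.10 with normexp on 1 median background per array. On the mLN array of experiment 2, 5 of 45018 spots had a local background over 1000, the highest 63751, where no spot of the other arrays exceeded 77.5. Their part in the shift was not tested further than by that added form. With the local-background normexp the sign turned for Kif11 (0.51), Bub1 (0.75), Ccne2 (0.77), Top2a (0.55), Mcm10 (0.88), Espl1 (1.17), Tpx2 (0.23), Skp2 (0.49) and E2f2 (0.10), where the median of all genes was 0.38. With an array left out, the differences ranged from −0.54 to 0.0706 for Ccne2, −0.91 to 0.25 for Cdc20, −1.26 to 0.29 for Birc5 and −1.15 to 0.11 for Ube2c, each highest without mLN replicate 2, and from −0.00826 to 0.35 for Ccne1, lowest without mLN replicate 1. The limits are those of 2 arrays per node, with 1 per node and experiment, and of a dim signal for Cdkn2a in pLN, which entered no fit where all 4 arrays had to be above background.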
